A study of Homo sapiens with 6 samples.

Results

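The MYC neighbourhood was examined on chromosome 8 of the hg19 build, chr8:126000001-131520000, a window of 5.52 Mb that holds the oncogene MYC and the gene-poor stretches on both sides of it. Its member genes were MYC, PVT1, POU5F1B, TRIB1, GSDMC and ASAP1, chosen for their position around MYC, and they are 6 of the 63827 genes annotated on chromosomes 1 to 22 and X. In bins of 40 kb the window held 138 bins, of which 27 overlap the 6 genes, and all 138 passed the coverage minimum set for the genome, where 64931 of 75918 bins passed. The data were maps of contacts between these bins, made by in situ Hi-C, which cuts cross-linked chromatin with an enzyme (here MboI), joins ends that lie close together in the nucleus and counts the joined fragments as sequenced read pairs.

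Maps of 4 established cancer cell lines were compared: SW480 and SNU-C1, both labelled as colon cancer lines, HCC1954, labelled as a breast cancer line, and OE33, labelled as an oesophageal adenocarcinoma line. The labels name no treatment of any line. SW480 had 2 replicate maps and a map without a replicate number, which equalled the pool of the replicates at 99.9% of the bin pairs of chromosome 8 and stands for SW480 below. The other 3 lines had 1 map each, so no p-value is given between lines, each line is 1 cell line rather than a sample of its tissue, and the intervals cover counting error only (exact Poisson, 95%). The SW480 maps hold almost no pairs between chromosomes, unlike the other 3. Differences between SW480 and the other lines therefore cannot be told apart from differences in how the maps were made. RNA was not analysed here, so neither the labelled tissue nor the activity of any gene could be checked.

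MYC encodes a transcription factor that drives growth and division and is one of the genes most often amplified in human cancer. Its promoter is contacted by enhancers spread over the surrounding gene desert, different ones in different tissues, and insulated boundaries of topologically associating domains limit which of them can reach it. In an insulation profile a boundary is a local minimum of the contacts that span a bin, and a rearrangement that joins distant segments appears in a Hi-C map as a block of contacts far from the diagonal.

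The order of the genes from the centromeric side was TRIB1, POU5F1B, MYC, PVT1, GSDMC and ASAP1. TRIB1, a pseudokinase that takes part in protein degradation, lies at chr8:126442600-126450645 on the plus strand. POU5F1B, a retrogene related to the pluripotency factor POU5F1, is annotated at chr8:128334428-128432311 on the plus strand, and MYC at chr8:128747680-128755197 on the plus strand. PVT1, a long non-coding RNA gene, covers chr8:128806772-129199347 on the plus strand and 10 bins. GSDMC, a member of the pore-forming gasdermin family, lies at chr8:130760442-130798870 on the minus strand, and ASAP1, a regulator of ARF GTPases, covers chr8:131064350-131455920 on the minus strand and 11 bins. Between protein-coding genes the stretch was empty for 1.11 Mb from TRIB1 to LRATD2, for 0.764 Mb from LRATD2 to POU5F1B, for 0.315 Mb from POU5F1B to MYC and for 2.01 Mb from MYC to GSDMC. The non-coding RNA genes PCAT1, CASC19, PRNCR1, CASC8, CASC11, LINC00824 and CCDC26 overlap these stretches, all 7 of them within the window.

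Within chromosomes the maps held between 89418278 read pairs in OE33 and 133401812 in SW480, or medians of 2506 to 3713 per autosomal bin, and the SW480 replicates held 65990548 and 67372971. Coverage is the number of read pairs that join a bin to other bins of its chromosome, divided by the autosomal median of the same map. It was read from Hi-C alone, and the number of DNA copies was not measured.

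The MYC bin had by far the highest coverage in SW480 among the 4 lines. It was covered 14.7 times the autosomal median in SW480 (14.5 and 14.9 in the replicates), 3.75 times in HCC1954, 2.46 times in OE33 and 2.60 times in SNU-C1. Divided by the median of the other 3 lines, the coverage of the MYC bin was 5.64 in SW480, and 5 of 64931 usable bins of the genome, the MYC bin included, were as high there (0.0077%). Over the 1 Mb around MYC the median relative coverage was 3.71 in SW480 (3.70 and 3.71 in the replicates), 1.68 in HCC1954, 0.572 in OE33 and 0.629 in SNU-C1. The replicates of SW480 thus differed by far less than SW480 and any other line.

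The other members differed in which line covered them most. PVT1 followed MYC, at 8.26 in SW480 (8.25 and 8.26 in the replicates), 1.86 in SNU-C1, 2.08 in OE33 and 4.15 in HCC1954. POU5F1B was at 7.14 in SW480 (7.16 and 7.12), 2.25 in SNU-C1, 1.85 in OE33 and 2.84 in HCC1954. These 3 genes were highest in SW480 and next in HCC1954. TRIB1, in contrast, was lowest in SW480 and highest in HCC1954, with 1.30 in SW480 (1.27 and 1.32), 1.96 in SNU-C1, 2.22 in OE33 and 3.94 in HCC1954. GSDMC was at 1.13 in SW480 (1.08 and 1.18), 1.71 in SNU-C1, 1.87 in OE33 and 2.67 in HCC1954. ASAP1 was at 1.13 in SW480 (1.13 in both replicates), 1.74 in SNU-C1, 1.77 in OE33 and 1.40 in HCC1954. Of the 6 members, TRIB1, GSDMC and ASAP1 were thus least covered in SW480, the line in which MYC, PVT1 and POU5F1B were most covered.

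**Figure D1:**
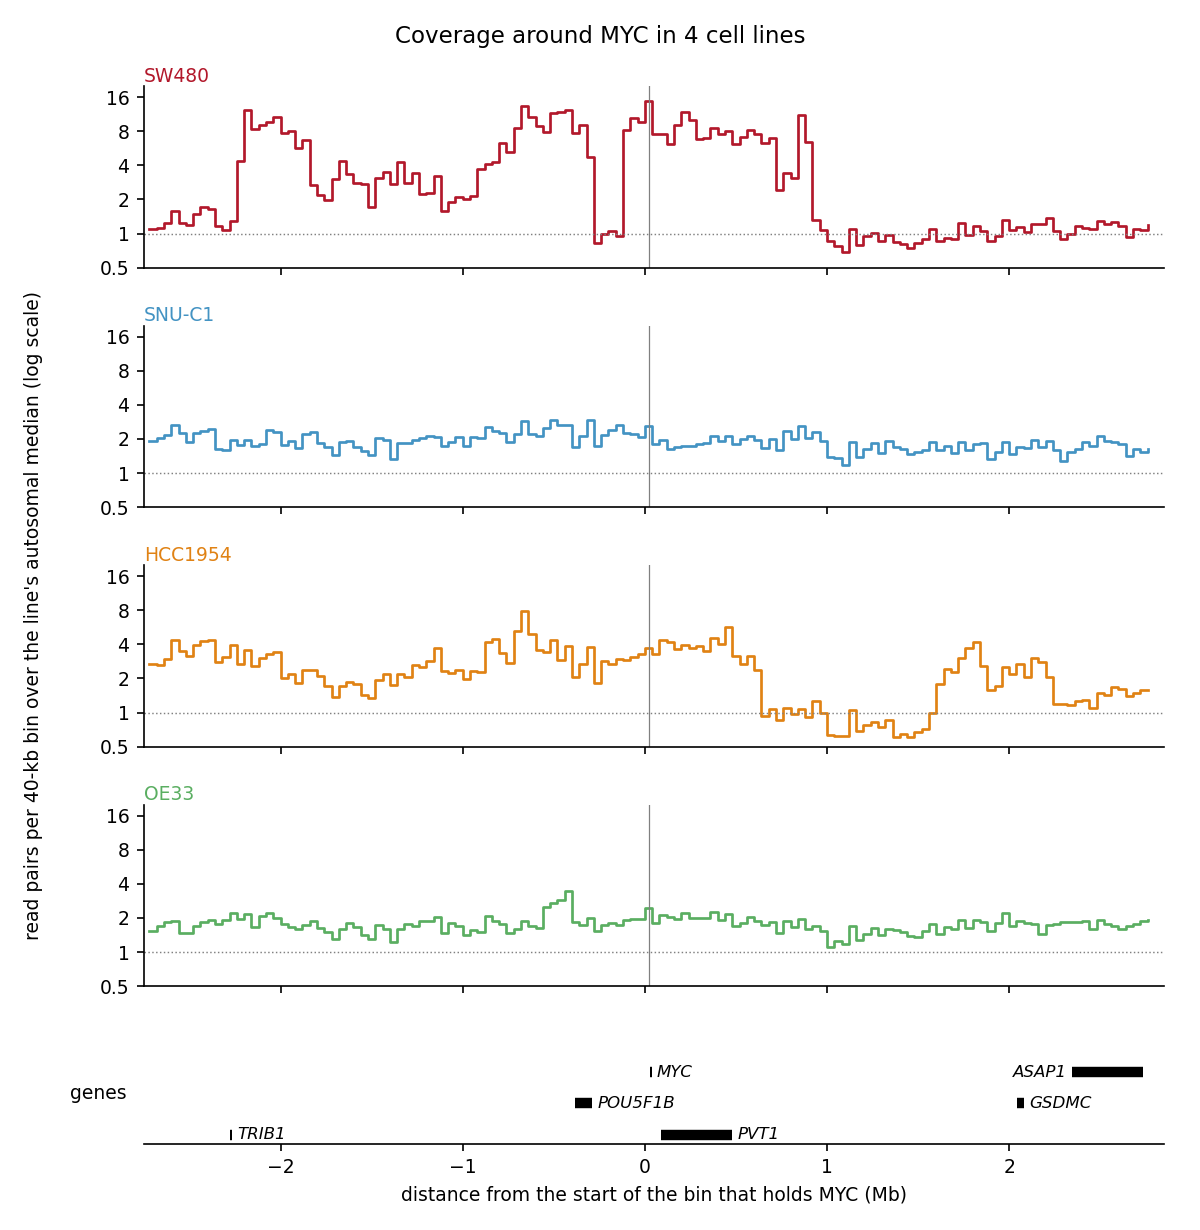
Coverage of each 40-kb bin over the autosomal median of its map (vertical axis, log scale) against the distance of the bin from the MYC bin in Mb, for the 4 lines and the member genes. SW480 stands above the other lines in separate blocks, one of them with MYC at 14.7, and drops to about the autosomal median in the gap before MYC and beyond the last block.

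In SW480 the high coverage was not continuous. Runs of at least 2 bins at 2 or more times the other lines, a description chosen after the coverage was seen, gave 6 blocks. The most upstream block, between 126.48 and 126.88 Mb, spanned 10 bins with coverage between 4.35 and 12.3 and held none of the listed genes. It began in the bin after TRIB1, which itself stood at 1.30. The next 2 were short runs of 2 bins each, at 127.00 to 127.08 Mb and at 127.32 to 127.40 Mb, and their highest bins stood at 4.38 and 4.29. A block of 12 bins between 127.92 and 128.40 Mb reached 13.2 and held CASC19, PRNCR1, most of POU5F1B and parts of PCAT1 and CASC8. The block with MYC ran over 21 bins from 128.60 to 129.44 Mb, with coverage between 6.22 and 14.7, and held CASC11, MYC, the whole of PVT1 and the bin of LINC00824 nearest to MYC. The last block, from 129.56 to 129.64 Mb, was 2 bins of 11.2 and 6.46 within and beside LINC00824. MYC and PVT1 therefore lay in 1 block, and POU5F1B at the end of another.

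The block of POU5F1B and the block of MYC were separated by a sharp gap in SW480. In the 4 bins between 128.44 and 128.60 Mb the coverage was 0.818 to 1.05, against 4.73 to 12.3 in the 5 bins before and 7.56 to 14.7 in the 5 bins after. In the same 4 bins SNU-C1 lay between 1.73 and 2.64, HCC1954 between 1.81 and 2.94 and OE33 between 1.53 and 1.79. The gap covers part of CASC8 and the intergenic DNA upstream of MYC, and it was the single run of 4 or more bins under 1.2 times the median between the upstream block and the end of the last one. Downstream of the last block SW480 stayed between 0.688 and 1.10 from 129.68 to 130.44 Mb, over most of CCDC26.

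A coverage step was defined as a change of at least 0.5 on the log2 scale in the median relative coverage between the 10 bins before and the 10 bins after a border. It also had to be the largest such change within 10 borders on either side. In SW480 the window held 4 such steps, and 0.261% of all autosomal borders were steps in that line. The relative coverage rose 7.03-fold at 126.40 Mb, 3.56-fold at 127.88 Mb and 1.93-fold at 128.60 Mb, and it fell 6.04-fold at 129.68 Mb. The 10 bins before 128.60 Mb take in both the gap and covered bins of the block of POU5F1B. With 5 bins on each side the rise there was 10.2-fold (9.96 and 10.5 in the replicates). By the rule with 10 bins the segment with MYC ran from 128.60 to 129.68 Mb, or 1080 kb, in the map and in each replicate. On the coverage of SW480 alone, without the other lines as reference, its upstream edge moved to 127.92 Mb, so that the segment took in POU5F1B and was 1720 kb long. Contacts between the edges, in 3 by 3 bins inside them, were 1.50 times the mean at that distance in SW480 (1.43 to 1.57, 1833 read pairs, 1.49 and 1.50 in the replicates). The same bins gave 1.04 in SNU-C1 from 233 read pairs, 1.01 in HCC1954 from 134 and 1.20 in OE33 from 164. From single bins in place of 3 by 3 the order turned, with 0.762 in SW480 and 1.51 in HCC1954. The downstream single bin, at 129.64 Mb, had a coverage of 1.32 in SW480 and lay outside the last covered block. It was also part of the 3 by 3 bins. Without correction the value of SW480 was 16.7. These values therefore cannot decide whether contact between the ends of the covered DNA was raised.

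HCC1954 had its own coverage pattern in the desert. It was above the other lines at TRIB1, reached 7.89 in the bin at 128.04 Mb within PCAT1 and covered PVT1 with 3.52 to 5.72 over its 10 bins. Downstream of PVT1 it dropped to 0.854 to 1.09 over the 7 bins between 129.36 and 129.64 Mb and to 0.610 to 1.05 over the 16 bins between 129.68 and 130.32 Mb. It was back at 4.22 in the bin at 130.52 Mb and stood at 3.04 and 2.78 in the first bins of CYRIB, a regulator of the actin cytoskeleton, before it lay between 1.10 and 1.68 over ASAP1. The 4 steps of this line, against 0.809% of all borders, were a fall at 126.56 Mb, a small rise at 128.64 Mb, a fall of 1.87 on the log2 scale at 129.20 Mb and a rise of 1.56 at 130.40 Mb. SNU-C1 had 5 steps against a background of 0.392% of borders, and OE33 had 3 against 0.521%. Since relative coverage is taken against the other lines, a step in 1 line can come from the levels of another, and which line gave each step was not tested. In their own coverage SNU-C1 and OE33 stayed between 1.11 and 3.46 throughout the window.

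A virtual 4C profile was then read from the row of the MYC bin. Each value is an observed over expected ratio (O/E), the corrected contact frequency of 2 bins divided by its mean over all usable bin pairs of the genome at the same distance. A bin was called line-specific where the O/E of 1 line was at least 4 and, after 0.5 was added to each value, no less than 4 times that of every other line.

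In SW480 MYC contacted the block beside TRIB1, about 2 Mb upstream, far above the mean for that distance. The rule called 10 of the 68 upstream bins, and these were the 10 bins between 126.48 and 126.88 Mb, while 0.00836% of bin pairs up to the same distance were called for SW480 over the genome. The highest value was 27.9 at 126.52 Mb (26.9 to 29.0, 2507 read pairs), with 27.9 in each replicate and at most 1.03 in the other 3 lines. The remaining 9 bins lay between 7.73 and 21.2. In the bin of TRIB1 directly upstream the O/E was 0.172 in SW480, from 3 read pairs, and in the bin directly downstream of the block it was 0.616. The bins with high contact were the bins with high coverage, but coverage counts the read pairs of these contacts too, so the borders of both measures are not independent.

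Downstream of MYC 0 of 69 bins were called in SW480. The 2 bins of the last block, at 129.56 and 129.60 Mb, had O/E values of 8.06 from 2591 read pairs and 6.24 from 1097, but OE33 had 2.22 and 2.05 there, so the ratio at 129.56 Mb was 3.14 and missed the rule. On uncorrected read pairs 39 bins were called in SW480, 9 of them downstream. In the gap upstream of MYC the O/E was 0.237 to 0.300 in SW480, and 0.920 to 2.32 in the other lines. Beyond the last block the O/E of SW480 fell, to 0.229 with ASAP1 from 43 read pairs, where the other lines had 36 to 48 read pairs.

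In HCC1954 the single bin called was at 130.88 Mb within CYRIB. Its O/E with MYC was 7.62 (6.09 to 9.42, 85 read pairs), and the highest of the other lines was 1.09. The neighbouring bins at 130.84 and 130.92 Mb had 3.65 and 2.74 in HCC1954. In sums over 3 by 3 bins no bin of HCC1954 was called (0 bins). For comparison, 0.0122% of bin pairs up to that distance were called for HCC1954. No bin was called in SNU-C1 or in OE33, where 0.0147% and 0.0222% of such pairs were called over the genome.

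**Figure D2:**
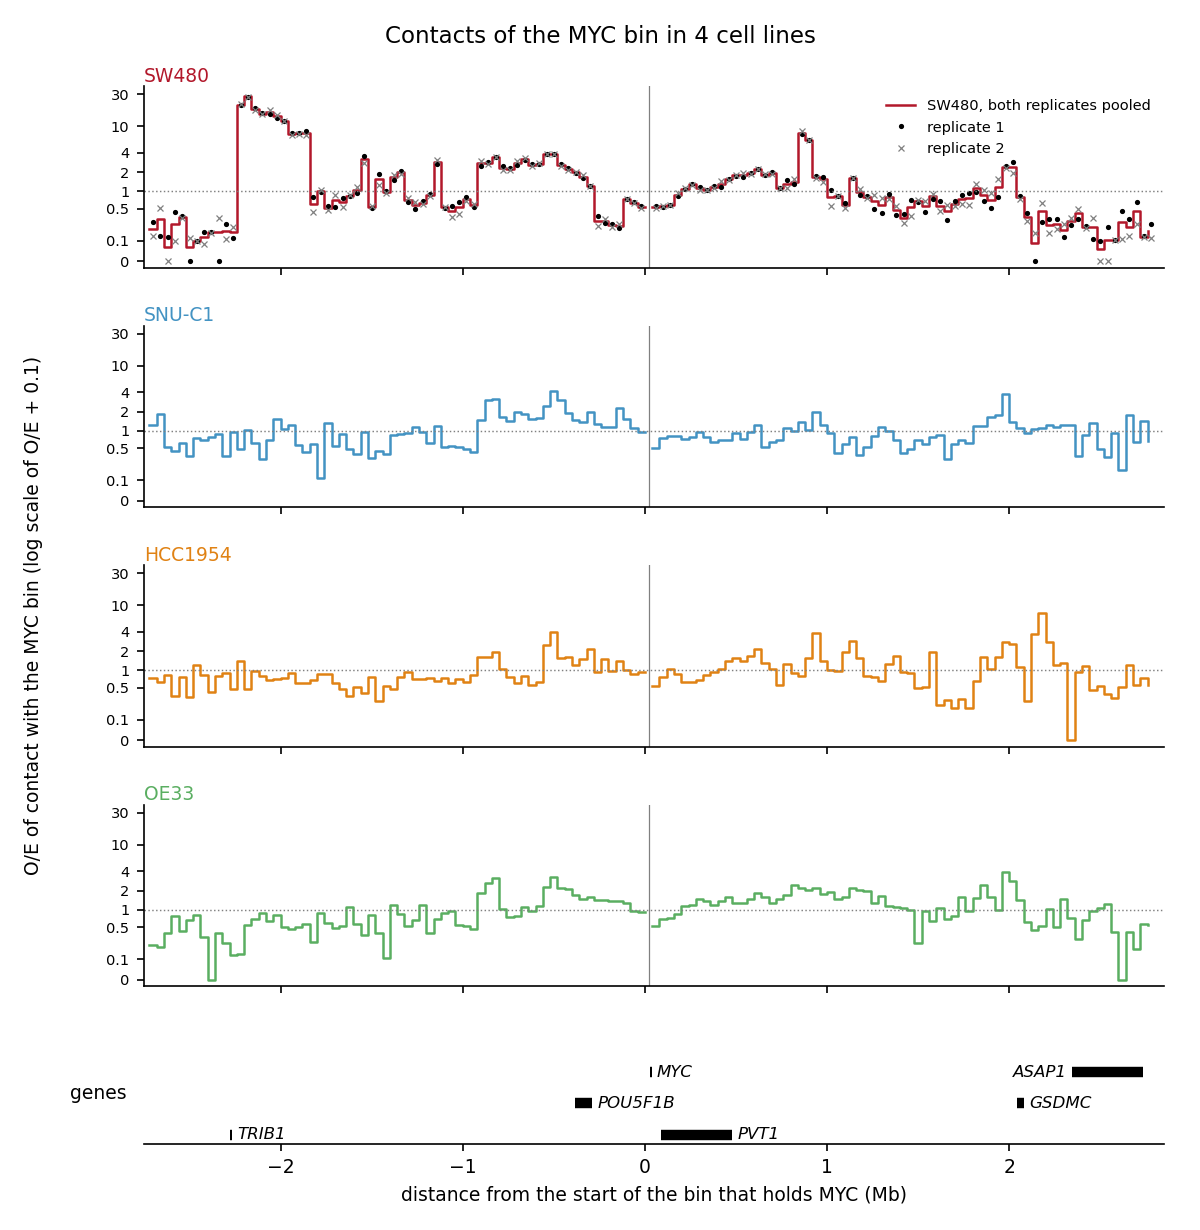
O/E of the MYC bin with every other bin of the window (vertical axis, log scale) against the distance of the bin from the MYC bin in Mb, for the 4 lines. In SW480 the 10 bins of the block beside TRIB1 stand between 7.73 and 27.9, and in HCC1954 the bin at CYRIB stands at 7.62.

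Some contacts of MYC were above the mean in all 4 lines. Of the 119 bins at least 400 kb from the MYC bin, 3 had an O/E of at least 2 in every line, a description added after the data were seen. Over the genome 1.39% of bin pairs at least that far and at most 69 bins apart did. The bin at 128.20 Mb, shared by CASC19 and PCAT1, had 3.84 in SW480, 4.13 in SNU-C1, 3.28 in OE33 and 3.95 in HCC1954, from 1993, 313, 183 and 348 read pairs. The bin beside it, at 128.16 Mb, had 3.81, 2.45, 2.30 and 2.52 in the same order of lines. The third, at 130.68 Mb, holds the 5′ end of CCDC26 and had 2.41, 3.74, 3.90 and 2.80, from 63, 29, 32 and 35 read pairs. By the rule these bins are above 2 in each line, and 3 of 119 is a share not far from that of the genome. The bin next to MYC on the PVT1 side was low in each line, with 0.547, 0.510, 0.517 and 0.535.

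MYC and the other member genes met at 0.129 to 1.64 times the mean frequency for their distance. With POU5F1B the mean O/E was 1.63 in SW480, 1.63 in SNU-C1, 1.60 in OE33 and 1.64 in HCC1954, from 2589, 491, 300 and 519 read pairs. These 4 values lay within each other's intervals, but they average bins in which the lines differed. In the bin at 128.32 Mb the O/E was 1.98 in SW480, 1.48 in SNU-C1, 1.69 in OE33 and 1.22 in HCC1954. In the bin at 128.40 Mb it was 1.20, 2.01, 1.61 and 2.19 in the same order. With PVT1 the mean O/E was 1.06 (1.05 and 1.06 in the replicates), 0.769, 1.16 and 0.884 in the same order. With GSDMC it was 0.789, 1.11, 1.42 and 1.11, from 8 to 18 read pairs, and the intervals overlapped. With TRIB1 it was 0.172, 0.961, 0.129 and 0.477, from 1 to 6 read pairs, and at this depth the intervals overlapped. With ASAP1 it was 0.229 (0.165 to 0.308) in SW480, below 0.869 in SNU-C1 (0.641 to 1.15), 0.622 in HCC1954 (0.436 to 0.861) and 0.592 in OE33 (0.415 to 0.820).

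All 15 pairs of members were put to the same rule, and 0 were called in any line. Without correction 2 were, POU5F1B with PVT1 in SW480 and TRIB1 with GSDMC in HCC1954, and with thresholds of 2 the latter was. Across the desert, TRIB1 with GSDMC had a mean O/E of 2.62 in HCC1954 from 16 read pairs, with 0.574 from 1 read pair in SW480, 0.440 from 1 in SNU-C1 and 0 from 0 in OE33. POU5F1B with PVT1 had 1.66 in SW480 from 9671 read pairs, against 0.990 in SNU-C1, 0.857 in OE33 and 0.723 in HCC1954. PVT1 with GSDMC ran the other way, with 0.571 in SW480, 1.87 in SNU-C1, 1.53 in OE33 and 1.10 in HCC1954. PVT1 with ASAP1 had 0.424 in SW480, 1.25 in SNU-C1, 0.614 in OE33 and 0.526 in HCC1954, from 578, 683, 405 and 465 read pairs. TRIB1 with PVT1 was low in SW480 too, with 0.366 from 35 read pairs, against 0.778 in SNU-C1, 0.385 in OE33 and 0.726 in HCC1954. Among other protein-coding genes, LRATD2 had 2.90 with MYC in SW480 (2.65 and 3.11 in the replicates), and 1.18, 0.661 and 0.698 in SNU-C1, HCC1954 and OE33.

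The same rule over all 9453 bin pairs of the window, added after the data were seen, set the contact of MYC with the block beside TRIB1 among the other contacts of that block. In SW480 270 pairs were called (2.86%), against 0.033% of all pairs up to that distance over the genome, and 270 and 269 of them had an O/E of at least 4 in replicates 1 and 2. Of the 354 pairs called for SW480 over the whole genome up to 69 bins apart, 237 lay in this window (66.9%). Between different covered blocks lay 240 of the 270 pairs (88.9%). The blocks were drawn from SW480 coverage, which counts the read pairs of these contacts, so blocks and calls are not independent. The share of all window pairs that lie between blocks was not counted. The block beside TRIB1 was in nearly all of the 240 pairs. It had 170 pairs to the block of MYC, 55 to the block of POU5F1B and 12 to the last block. These blocks hold 21, 12 and 2 bins, so the possible pairs differ and the counts do not rank the blocks. The remaining 3 of the 240 pairs joined the first short run with the block of MYC. Among the blocks of POU5F1B and MYC and the last block 0 pairs were called. The bins at 126.48 and 129.60 Mb, the outer ends of the first and last blocks, had an O/E of 121 from 1476 read pairs, 120 and 122 in the replicates, and at most 2.20 in the other lines. The bins at 126.84 and 129.40 Mb, near the inner end of the first block and the downstream end of the block of MYC, had 51.9 from 1400 read pairs and at most 1.21 elsewhere.

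Averaged over whole blocks in SW480, the block beside TRIB1 had a mean O/E of 29.5 with the last block, 9.90 with the block of MYC and 5.25 with the block of POU5F1B, from 17173, 80496 and 50052 read pairs. It had 0.321 with the gap between the blocks of POU5F1B and MYC, from 148 read pairs. In the other 3 lines the same 3 pairs of blocks lay between 0.554 and 1.55. The block of POU5F1B with the block of MYC had 2.58 in SW480, 1.72 in SNU-C1, 1.27 in OE33 and 0.932 in HCC1954, and with the last block, in the same order, 4.90, 2.48, 1.71 and 1.10. In the replicates the values of the first block were 29.6 and 29.3, 9.89 and 9.87, and 5.29 and 5.20. The 2 short runs met the first block far less, at 0.766 and 1.44. Contacts of the block beside TRIB1 in SW480 were thus high with the covered DNA around POU5F1B and MYC and low with the gap between them. Blocks and gap were drawn from coverage, which counts these read pairs too, so the contrast is not independent of how they were chosen.

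**Figure D3:**
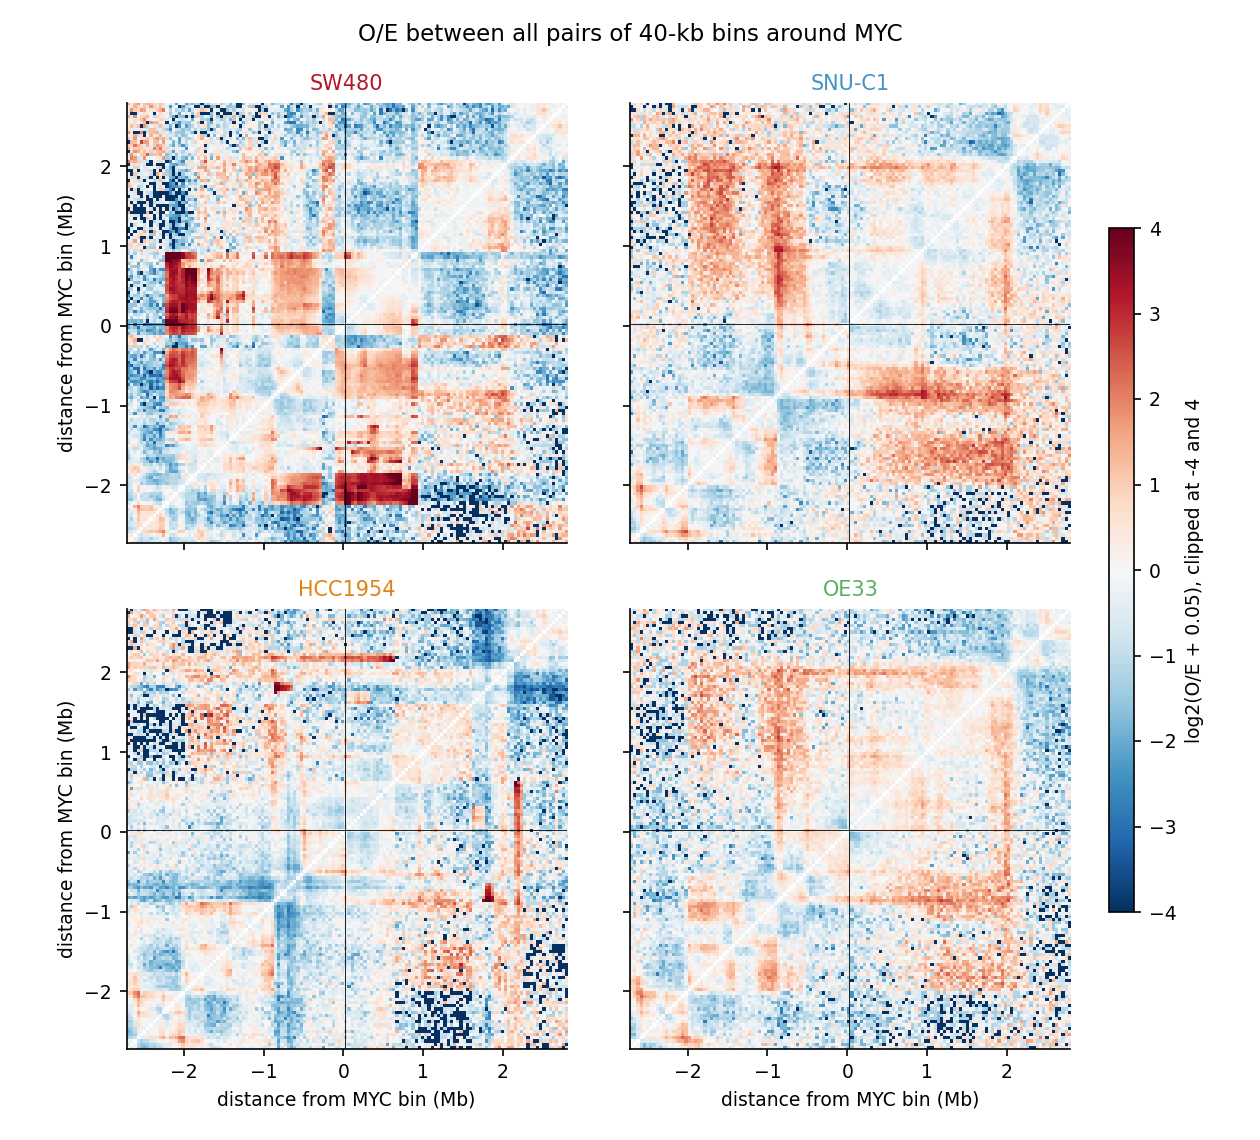
O/E of all bin pairs of the window in the 4 lines, drawn as square maps with the distance from the MYC bin in Mb on both axes and a log colour scale. SW480 shows blocks of high O/E far from the diagonal between the block beside TRIB1, the blocks of POU5F1B and MYC, and the last block, and HCC1954 shows 2 smaller patches, one of which spans MYC.

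In HCC1954 13 pairs of the window were called (0.138%), against 0.116% over the genome, in SNU-C1 0 against 0.0942% and in OE33 0 against 0.146%. All 13 pairs of HCC1954 were at most 69 bins apart. They were 2.52% of the 516 pairs called for this line over the genome up to that distance. Only 0.0122% of the genome's pairs up to that distance were called for this line. Among window pairs that close, the 13 make up at least 0.138%, so the window stood above the genome at like distance. The 0.116% also takes in longer distances, where most of the 9562 pairs called for this line lay. The 13 pairs fell into 2 patches. One joined the bins from 127.84 to 127.92 Mb in PCAT1 with those at 130.48 and 130.52 Mb in CCDC26, up to an O/E of 41.6 from 832 read pairs, where SW480, SNU-C1 and OE33 had 4.56, 2.95 and 2.35. The other joined the bins from 129.20 to 129.32 Mb, just downstream of PVT1, with those at 130.84 and 130.88 Mb in CYRIB, and the MYC bin with the latter, up to 18.2 from 271 read pairs. At its highest pair the other lines had at most 1.50, and over the whole patch at most 1.53. Both patches touched bins where the coverage of HCC1954 changed: the rise before 130.52 Mb, the fall after 129.32 Mb and the fall after 130.92 Mb within CYRIB. Whether any of these contacts is a joined segment of DNA was not tested.

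The insulation score compares the mean corrected contact across a bin, within 1 Mb on each side, with its mean over the autosomes on the log2 scale. A low score marks few contacts across the bin. At MYC it was 0.59 in SW480 (0.58 and 0.59 in the replicates), 0.35 in SNU-C1, 0.00 in OE33 and -0.31 in HCC1954. In SW480 5.14% of scored bins were as high, and in HCC1954 69.6% were. On uncorrected read pairs the score was positive in every line, with 1.62 in HCC1954. At 3 places a boundary stood in all 4 lines, within 2 bins of each other. The one at 126.08 Mb, where WASHC5 and NSMCE2 adjoin, had scores of -1.03 in SW480, -0.80 in SNU-C1, -0.73 in OE33 and -0.70 in HCC1954. The one at 127.80 or 127.84 Mb, within PCAT1, had -0.33, -1.04, -0.57 and -1.24 in the same order. The one between 130.72 and 130.80 Mb, at GSDMC, had -1.28, -1.04, -1.10 and -1.58. Of all scored autosomal bins 4.22% were boundaries in SW480, 4.39% in SNU-C1, 3.93% in OE33 and 4.27% in HCC1954. How often all 4 lines share a boundary over the genome was not counted, so these 3 places are not set against a background. In each line MYC, PVT1 and POU5F1B lay between the second and the third of these places, TRIB1 lay between the first and the second, and ASAP1 lay beyond the third.

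Other boundaries of the neighbourhood differed between lines. SNU-C1, HCC1954 and OE33 had one at 126.68 or 126.72 Mb, about the middle of the block beside TRIB1, with scores of -0.54, -0.72 and -0.51. In SW480 the minimum of this stretch was at the start of that block, at 126.48 Mb, with -0.96, but it was nearly tied with 126.64 Mb at -0.95, and the replicates were split, with boundaries at 126.64 Mb in replicate 1 (-0.96) and at 126.48 Mb in replicate 2 (-0.98). The boundary of replicate 1 was thus a bin from that of HCC1954, while that of replicate 2 lay further from all 3 lines. At the end of the last block, 129.64 Mb, SW480 had a boundary with -1.23, where the boundaries of OE33 and, a bin further on, SNU-C1 were weak minima at 0.10 and -0.06. HCC1954 had one at 129.32 Mb, where its coverage fell, with -0.56. The MYC bin itself was a boundary in HCC1954 and OE33, of strength 0.28 and 0.30, and not in SW480 or SNU-C1, where SNU-C1 had one inside PVT1 at 129.04 Mb with -0.18. This turned with the window: at 480 kb the MYC bin was a boundary in SW480 too, of strength 0.97 (0.98 and 0.96 in the replicates), beside 0.90 in HCC1954 and 1.18 in OE33. With a window of 240 kb in place of 1 Mb the score at MYC was low in all 4 lines, at -0.96 in SW480, -0.80 in SNU-C1, -1.19 in OE33 and -1.13 in HCC1954, and boundaries stood at the MYC bin in HCC1954 and OE33 and a bin upstream in SW480. At that width a boundary also stood at 126.68 or 126.72 Mb in all 4 lines, SW480 included.

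**Figure D4:**
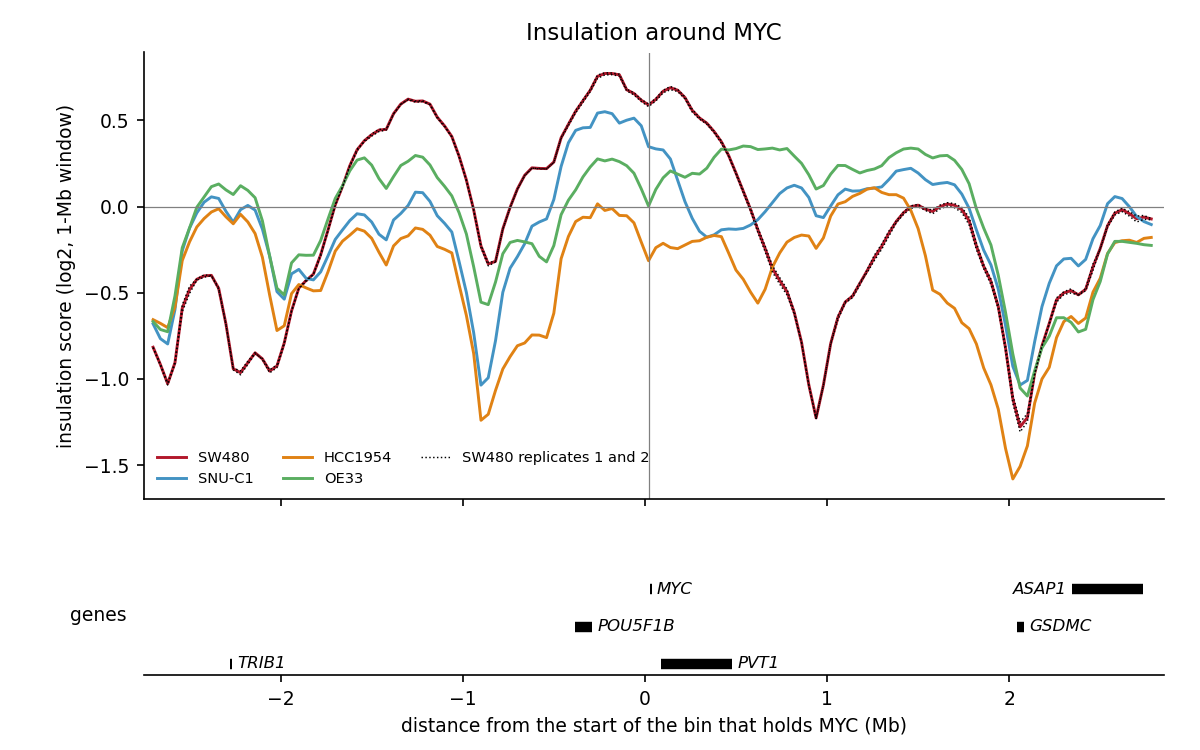
Insulation score (log2, window of 1 Mb) against the distance of each bin from the MYC bin in Mb for the 4 lines. Minima in PCAT1 and at GSDMC recur in the 4 lines, and the minimum of -1.23 on the far side of PVT1 belongs to SW480.

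The balance of MYC's contacts also differed between lines. Between 40 kb and 2 Mb the mean O/E in SW480 was 2.09 upstream and 1.34 downstream, a log2 ratio of 0.64 (0.61 to 0.66, with 0.67 and 0.61 in the replicates). In SNU-C1 it was 1.25 and 0.917, a ratio of 0.44 (0.37 to 0.52). In both colon lines the upstream side was thus higher over the whole range, though at different distances, as given below. HCC1954 had 0.989 and 1.17, a ratio of -0.25 (-0.31 to -0.18), and OE33 1.08 and 1.47, a ratio of -0.45 (-0.52 to -0.37), so in both the side of PVT1 was higher. Within 500 kb the picture was another, with -0.02, 1.08, 0.52 and 0.42 in SW480, SNU-C1, HCC1954 and OE33, so the sign turned in HCC1954 and OE33 and the sides were nearly even in SW480. On uncorrected read pairs the ratio of HCC1954 was 0.25.

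By distance, the side with the higher contact in SW480 changed. From 40 to 200 kb the mean O/E of SW480 was 0.480 upstream (0.468 to 0.493) and 0.733 downstream (0.716 to 0.751). The upstream mean took in the gap bins at 128.52 and 128.56 Mb, with 0.240 and 0.237. Nearest to MYC first, the other upstream bins had 0.541, 0.639 and 0.743. The downstream bins at the same distances had 0.547, 0.558 and 0.589. Outside the gap the sides were thus nearly even at 40 kb, and the upstream side was higher in the next bins. From 240 to 480 kb the mean O/E was 1.47 upstream and 1.32 downstream, and from 520 to 1000 kb it was 2.60 and 2.46. From 1040 to 2000 kb, where the upstream side takes in the nearer bins of the block beside TRIB1, it was 2.31 upstream and 0.886 downstream. SNU-C1 had its upstream excess nearer to MYC, with 1.75 against 0.784 from 240 to 480 kb and 1.94 against 1.03 from 520 to 1000 kb, and had 0.716 against 0.934 from 1040 to 2000 kb. The upstream excess of the colon lines was thus not at the same distances. From 2040 to 2720 kb, a range that takes in part of the block beside TRIB1 on one side and GSDMC and ASAP1 on the other, SW480 had 6.41 and 0.272, from 7948 and 94 read pairs. SNU-C1, HCC1954 and OE33 had 0.788, 0.743 and 0.464 upstream and 0.962, 1.37 and 0.696 downstream at that range. Their downstream values came from 99, 226 and 78 read pairs, so the low O/E of SW480 there did not come with clearly fewer. Of the read pairs of the MYC bin on chromosome 8, 98.0% stayed in the window in SW480, 89.5% in OE33, 88.2% in HCC1954 and 86.5% in SNU-C1.

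Over the 89 bins with at least 10 read pairs with MYC in both, the O/E of the replicates differed by a median of 0.12 on the log2 scale and by at most 0.85. Over the bins with that depth in both maps SW480 differed by medians of 0.64 from SNU-C1, 0.65 from HCC1954 and 0.59 from OE33. Among the other lines the medians were 0.43 between SNU-C1 and HCC1954, 0.56 between SNU-C1 and OE33 and 0.39 between HCC1954 and OE33. These maps held fewer read pairs of the MYC bin than SW480 (6208 to 9392 against 54472), and no spread between replicates was measured in those 3 lines.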

How the data were processed

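The authors cut chromatin with MboI, used BWA-MEM for alignment to hg19 and Picard against PCR duplicates, and corrected the maps iteratively. The paper states that the Hi-C experiments were analysed in duplicate. Tool versions, and whether the map of OE33, HCC1954 or SNU-C1 pools these duplicates, are not given in the sources here. The deposited values are a signal, the corrected contact frequency of 2 bins of 40 kb, and a deposited list gives the other values, bin positions. The pooled SW480 map holds 352916 values between chromosomes, and the other 3 hold 19500640 to 50195475. Pairs within a bin stand only in the SW480 maps. The SW480 maps were taken as corrected within chromosomes and the other 3 over the genome, which was not tested. Differences between SW480 and the other lines cannot be told apart from this difference between the maps.

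Read pairs were recovered as each value times a factor for each bin, fitted on pairs at least 5 Mb apart. Within 0.02 of a whole number lay 99.9% to 100% of the recovered values tested, and 100% on chromosome 8. Only values of low read-pair counts were tested, so the high counts given above were not part of this check. Within-bin pairs were left out. Bins under 0.25 of the autosomal median in any line were left out. Insulation boundaries needed a strength of 0.1. Genes came from the GENCODE annotation lifted to hg19, in which CCAT1 was not found. Members, lists and rules were chosen with earlier results of these data known. The named genes were the members, the other protein-coding genes and listed non-coding genes of the window. Values came from pandas 2.3.3, NumPy 2.4.6, PyArrow 21.0.0 and SciPy 1.17.1 in Python 3.11.15, figures from Matplotlib 3.10.9, and the code was tested on simulated data. Alternatives were uncorrected read pairs, other thresholds, window sizes and expected values, thinning to the lowest depth, and each SW480 replicate alone.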

Additional observations from a re-analysis of the deposited data

Results flagged for a closer look

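Contacts between chromosomes entered none of the comparisons above. In HCC1954 the MYC bin had 535 read pairs with chromosome 5, or 28.9% of its 1850 pairs with other chromosomes, where chromosome 5 holds 6.77% of the bins, a share 4.27 times higher. In SNU-C1 58 of 1041 such pairs (5.57%) and in OE33 157 of 3003 (5.23%) were with chromosome 5. The value was listed because it stands above the level in the other lines in data that the report did not use. SW480 was not compared, since its maps hold almost no pairs between chromosomes (114 for the MYC bin).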

How the results depend on the processing

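The relative coverage around MYC, with 3.71, 0.629, 1.68 and 0.572 for the lines SW480, SNU-C1, HCC1954, OE33 (the order used throughout), was 5.64, 0.694, 1.44 and 0.656 in the MYC bin alone, 1.83, 0.879, 1.26 and 0.737 over 3 Mb, and 7.70, 2.06, 3.52 and 1.97 over the own autosomal median. Each SW480 replicate alone gave 3.70 to 3.71. The insulation score at MYC became -0.15, -0.49, -0.74 and -0.64 with a window of 480 kb and -0.96, -0.80, -1.13 and -1.19 with 240 kb, so its sign turned in SW480 and SNU-C1. It was 0.95, 0.94, -0.012 and 0.42 on O/E values, and 3.74, 1.41, 1.62 and 1.12 on uncorrected read pairs, which turned its sign in HCC1954. The bins called with MYC rose to 39 in SW480 and 2 in HCC1954 without correction, and HCC1954 had 2 with thresholds of 2 and 0 with 3 by 3 bins, where the bin at CYRIB was lost. The 10 bins of SW480 were called under all alternatives run. Member pairs called rose from 0 to 2 without correction and to 1 with thresholds of 2. The upstream to downstream ratio was 0.91, 0.66, 0.25 and -0.27 without correction, -0.024, 1.08, 0.52 and 0.42 within 500 kb, 0.76, 0.23, -0.50 and -0.74 beyond it, and 0.80, 0.29, -0.10 and -0.36 from 3 bins, so its sign held under all of these in SNU-C1 alone. Coverage steps numbered 7 in HCC1954 and 6 in OE33 with 5 bins on each side, 2 in HCC1954, 1 in OE33 and 1 in SNU-C1 with 20 bins, and 2 in HCC1954, 0 in OE33 and 1 in SNU-C1 with a smallest step of 1. The edges of the MYC segment moved to 129.72 Mb with 5 bins, and to 127.92 and 129.64 Mb on own coverage. The O/E between the edges was 16.7, 2.51, 1.65 and 2.43 without correction, 1.60 in SW480 with the expected value of chromosome 8, and 0.762 in SW480 and 1.51 in HCC1954 from single bins. The difference between the SW480 replicates fell from 0.12 to 0.078 with 3 by 3 bins. The medians between SW480 and the other lines rose to 0.86, 0.97 and 0.73 with 3 by 3 bins and to 2.51, 1.88 and 1.94 without correction. Smaller changes in counts were 14 bins called in SW480 with thresholds of 2, and 6, 3 and 3 coverage steps in SW480 with 5 bins, 20 bins and a smallest step of 1. The cause of these changes was not tested.

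No paired analysis was possible because the other lines have 1 map each. Depth limits the contacts of MYC with TRIB1 and GSDMC, which rest on 1 to 18 read pairs.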
